A study of Mus musculus with 4 samples.

Results

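The genes described here are 10 heat shock and oxidative stress defence genes, *Hmox1*, *Hspa1a*, *Hspa1b*, *Hspb1*, *Nqo1*, *Gclm*, *Gclc*, *Srxn1*, *Txnrd1* and *Gpx2*, measured in the mouse cochlea. They were chosen by name, and every non-control probe that carries one of these names was taken, which gave 10 probes of the 39429 on the array. Of the 10 genes, 9 have a probe of their own name and *Hspa1b* has none. *Hmox1* has 2 probes and each of the other 8 genes has 1. All 10 probes were detected well above background on each of the 4 arrays, which held for 18232 of the 21918 genes measured. Cochlear RNA of 4 groups of B6J mice aged 5 weeks was labelled with the dye Cy3 for 1 Agilent array per group: untreated wild-type mice, wild-type mice given diphtheria toxin (DT) at 50 μg/kg, untreated *Prestin*-*hDTR* mice, and *Prestin*-*hDTR* mice given the same dose. Cochleae of DT-treated groups were taken 7 days after the toxin, and each pool came from 4 females and 4 males. *Prestin*-*hDTR* mice, which the labels call OHC-TRECK, carry a modified human toxin receptor under the promoter region of *Slc26a5* (prestin), a gene of outer hair cells (OHCs), and come from 1 transgenic line. The comparisons asked how a whole cochlea responds when its OHCs are lost, with the toxin in mice that lack the receptor and the transgene without the toxin as the controls. With 1 array per group, no difference has a replicate check, no test was possible and no p-value is given.

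Cells under heat, oxidants or toxic metals switch on a pair of defence programmes. Heat shock factor 1 binds repeats of the letters GAA upstream of chaperone genes, whose products hold and refold damaged proteins. The transcription factor NRF2 (*Nfe2l2*), freed from its inhibitor KEAP1, binds antioxidant response elements of genes that make glutathione, reduce thioredoxin and remove quinones, haem and peroxides. In the cochlea both programmes are known for their response to noise and to ototoxic drugs.

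The level of a probe is given on the log2 scale relative to the 75th percentile of its array, and a difference between arrays is a log2 ratio of levels. Repeated spots of 240 to 244 other probes, as bright as the 10 described here, had a median SD of 0.06 (log2) within an array. For a ratio of single spots, 2 SD were 0.17 on the log2 scale, or 1.13-fold. This covers error between spots within an array, and not labelling and hybridization of each array or the spread between mice. It rests on the median probe, and at the 95th percentile of probes the SD of a ratio was 0.15. The labels were checked with marker genes. Of 10 OHC markers, 7 were lower by 2-fold or more in DT-treated than in untreated *Prestin*-*hDTR* mice. The RNA of whole cochleae alone cannot tell fewer OHCs from less RNA per OHC. From staining and cell counts, the paper reports that DT-treated *Prestin*-*hDTR* mice had lost almost all of their OHCs. The 12 supporting cell markers and 4 inner hair cell markers were detected well above background on each array. All 4 inner hair cell markers were lower in DT-treated *Prestin*-*hDTR* mice than on each other array, with a median of -0.53 against untreated *Prestin*-*hDTR* mice, and none by 2-fold. The paper, however, counted as many inner hair cells after the toxin in these mice. It also found no significant difference by qRT-PCR in *Slc17a8*, which is among these markers.

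None of the 9 measured genes differed by 2-fold in any of the 6 comparisons made. The count was 0 of 9 in DT-treated against untreated wild-type mice, where 2.7% of all genes were past 2-fold in either direction, and 0 of 9 in untreated *Prestin*-*hDTR* against untreated wild-type mice, where 3.54% were. In DT-treated *Prestin*-*hDTR* mice it was 0 of 9 against untreated *Prestin*-*hDTR* mice (4.46% of all genes), 0 of 9 against DT-treated wild-type mice (3.48%) and 0 of 9 against untreated wild-type mice (4.21%). Against all 3 other arrays at once it was again 0 of 9, and 1.53% of all genes were past 2-fold. With these shares, a count of 0 among 9 genes does not set them apart from other genes. The largest range over the 4 arrays was that of the *Hspa1a* probe, 1.68-fold, and the smallest among the 9 genes was that of *Txnrd1*, 1.09-fold.

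**Figure D1:**
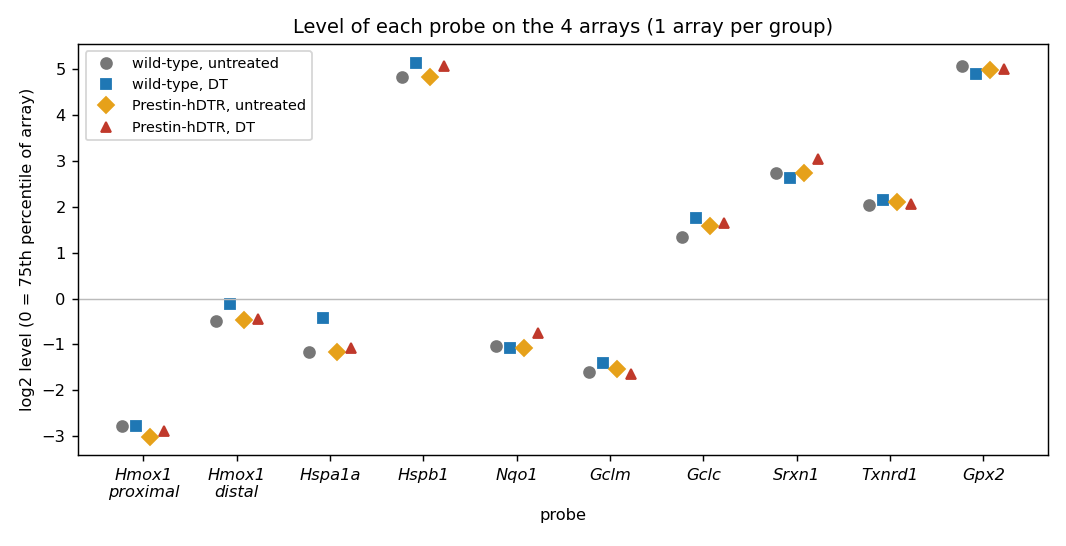
Log2 level of each of the 10 probes (x axis) relative to the 75th percentile of its array (y axis), with 1 point per array and 1 array per group. The 4 points of a probe lie close together, the *Hspa1a* probe of DT-treated wild-type mice (-0.42) stands apart from the other 3 arrays (-1.17 to -1.07), and levels of different probes are not comparable because probes differ in brightness.

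*Hspa1a* and *Hspa1b* encode the inducible HSP70 chaperones and are near-identical neighbours on chromosome 17. The array has 1 probe for both, at chr17:35107117-35107176 on the minus strand (mm9, as the array files give it). The accessions listed for it are transcripts of both genes, so the copies cannot be told apart here. The probe and the 250 bases before each RefSeq transcription start (GRCm38.p6) are shown because 1 value stands for both genes. Capitals mark GAANNTTC, a pair of opposed heat shock half-sites that reads the same on both strands. It begins 104 bases before the start in both genes, and the windows are identical at 247 of 250 bases (98.8%).
*Hspa1a* probe, 60 bases: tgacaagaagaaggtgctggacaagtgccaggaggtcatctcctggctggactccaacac
*Hspa1a*, chr17:34972157-34972406, minus strand: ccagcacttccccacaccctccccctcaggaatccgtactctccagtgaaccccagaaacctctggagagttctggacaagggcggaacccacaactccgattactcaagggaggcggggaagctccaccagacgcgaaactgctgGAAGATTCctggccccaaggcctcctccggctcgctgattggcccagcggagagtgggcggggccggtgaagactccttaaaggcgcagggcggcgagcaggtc
*Hspa1b*, chr17:34959239-34959488, minus strand: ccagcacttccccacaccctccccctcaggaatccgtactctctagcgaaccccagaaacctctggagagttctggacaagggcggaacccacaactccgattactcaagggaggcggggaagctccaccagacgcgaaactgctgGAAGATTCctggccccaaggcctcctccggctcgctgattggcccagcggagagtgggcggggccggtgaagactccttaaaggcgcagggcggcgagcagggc

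On the *Hspa1a* probe the level was -1.17 and -0.42 in wild-type mice without and with DT, and -1.17 and -1.07 in *Prestin*-*hDTR* mice without and with DT. The array of DT-treated wild-type mice stood alone above the other 3, which lay within 0.09 of each other on the log2 scale. The probe was therefore 1.68-fold higher in DT-treated than in untreated wild-type mice, and 2.37% of all genes had a ratio at least as high. At a threshold of 1.5-fold it was the only one of the 9 genes called, and 3.1% of all genes were called as higher at that threshold. In *Prestin*-*hDTR* mice the toxin ratio was 0.09 (1.07-fold), within the spot error. Set against DT-treated wild-type mice, DT-treated *Prestin*-*hDTR* mice were 1.58-fold lower, and at 1.5-fold 4.49% of all genes were called as lower. These comparisons share the array of DT-treated wild-type mice.

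*Hspb1* encodes the small heat shock protein HSP27, which holds unfolded proteins and guards the actin cytoskeleton. Its probe lies at chr5:136365366-136365425 (mm9). Its level was 4.83 and 5.15 in wild-type mice without and with DT, and 4.84 and 5.08 in *Prestin*-*hDTR* mice without and with DT. Both DT-treated arrays lay above both untreated arrays. The toxin ratio was 0.31 (1.24-fold) in wild-type and 0.24 (1.18-fold) in *Prestin*-*hDTR* mice. Of all genes, 5.77% had a ratio at least as high in wild-type and 15.5% in *Prestin*-*hDTR* mice. *Hspb1* was the only one of the 9 genes whose ratios passed 2 SD of the spot error in both genotypes. Under quantile scaling the wild-type ratio was 0.45. The window before its start is shown because it holds the same heat shock pair at 2 places, beginning 117 and 97 bases before the start (capitals).
*Hspb1*, chr5:135887669-135887918, plus strand: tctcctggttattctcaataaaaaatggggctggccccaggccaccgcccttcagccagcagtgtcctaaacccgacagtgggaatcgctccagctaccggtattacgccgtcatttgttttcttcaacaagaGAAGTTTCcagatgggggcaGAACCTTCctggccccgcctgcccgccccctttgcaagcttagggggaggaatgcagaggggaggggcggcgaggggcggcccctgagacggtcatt

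The GAANNTTC pair was present in the windows of *Hspa1a*, *Hspa1b* and *Hspb1*, 3 of the 8 genes with a window in the RefSeq table, and in 7.73% of all 27025 genes of the table (6.69% of its 32851 windows, all of the same length). *Hmox1* and *Gclc* have no window in the table. A match is a description of the letters and not evidence of binding.

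*Hmox1* encodes haem oxygenase 1, which splits haem into biliverdin, iron and carbon monoxide and is induced by haem, oxidants and heat. Its distal probe, at chr8:77624207-77624266 on the plus strand (mm9), had levels of -0.50 and -0.11 in wild-type mice without and with DT, and -0.47 and -0.45 in *Prestin*-*hDTR* mice without and with DT. As with the *Hspa1a* probe, DT-treated wild-type mice stood above the other 3, which lay within 0.05 of each other. The proximal probe, at chr8:77620797-77620856, did not share this pattern. Its levels were -2.79, -2.77, -3.01 and -2.89 in the same order, and DT-treated and untreated wild-type mice differed by 0.02. The distal probe was 1.31-fold higher in DT-treated than in untreated wild-type mice, and the proximal probe 1.01-fold. Averaging both probes gave a log2 ratio of 0.20. In *Prestin*-*hDTR* mice the toxin ratio was 0.03 on the distal and 0.12 on the proximal probe, both within the spot error. The lowest array of the proximal probe was that of untreated *Prestin*-*hDTR* mice, 0.22 below untreated wild-type mice. The proximal probe is shown because the 2 probes of the gene disagree.
*Hmox1* proximal probe, 60 bases: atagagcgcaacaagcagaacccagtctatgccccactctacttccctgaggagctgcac

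**Figure D2:**
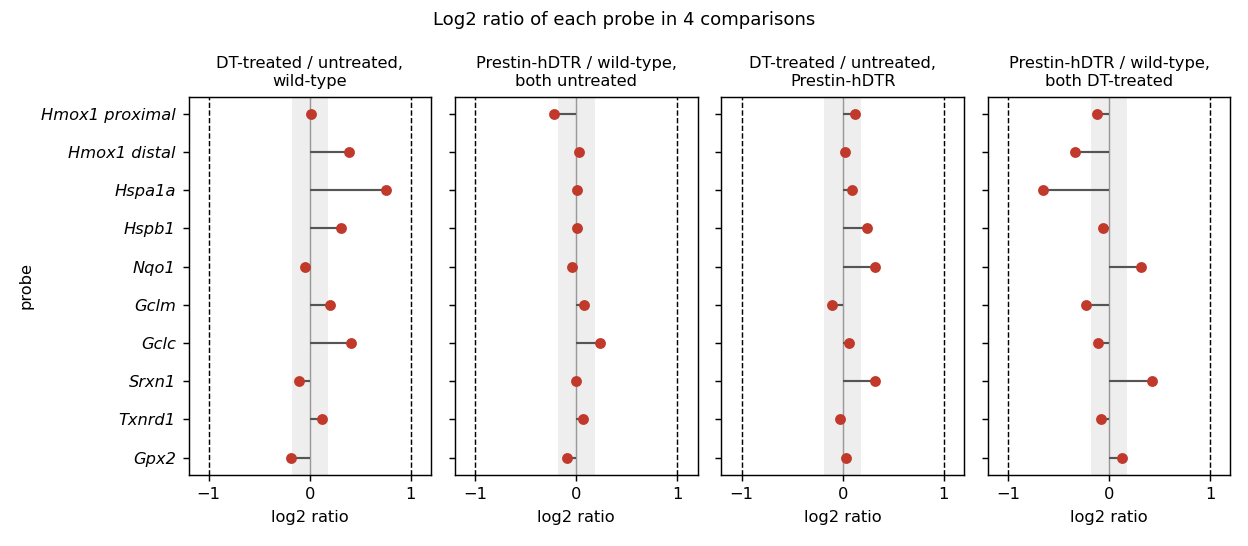
Log2 ratio (x axis) of each of the 10 probes (y axis) in 4 comparisons of 2 arrays, with the 2-fold limits as dashed lines and 2 SD of the error between spots (0.17) in grey. No point reaches a dashed line, the *Hspa1a* probe goes farthest (0.75 in DT-treated against untreated wild-type mice), and *Nqo1* and *Srxn1* lie right of the grey band in both panels that set DT-treated *Prestin*-*hDTR* mice against another group.

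Glutathione is made from glutamate and cysteine by glutamate-cysteine ligase, an enzyme with a catalytic subunit (*Gclc*) and a modifier subunit (*Gclm*). The *Gclc* probe lies at chr9:77641296-77641355, and that of *Gclm* is given as chr3:121962174-121964809, which spans more than the probe's own length (mm9). *Gclc* had a level of 1.35 and 1.76 in wild-type mice without and with DT, and 1.59 and 1.65 in *Prestin*-*hDTR* mice without and with DT. Untreated wild-type mice were thus below the other 3 arrays. The ratio to untreated wild-type mice was 1.32-fold for wild-type mice with DT, and 1.18-fold and 1.23-fold for *Prestin*-*hDTR* mice without and with DT. The toxin ratio in *Prestin*-*hDTR* mice was 0.06, within the spot error. *Gclm* had a level of -1.61, -1.41, -1.54 and -1.64 in the same order of groups, with DT-treated wild-type mice highest and DT-treated *Prestin*-*hDTR* mice lowest. Its toxin ratio was 0.20 (1.15-fold) in wild-type and -0.11 in *Prestin*-*hDTR* mice, and only the first passed 2 SD of the spot error. The ligase subunits thus had the same highest array, by 0.11 for *Gclc* and 0.12 for *Gclm*, each within 2 SD of the spot error. Their lowest arrays were not the same. For *Gclm*, however, DT-treated *Prestin*-*hDTR* mice lay only 0.03 below untreated wild-type mice, also within that error.

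*Srxn1* encodes sulfiredoxin, which restores over-oxidised peroxiredoxins, and its probe lies at chr2:151937009-151937068 (mm9). Its level was 2.74 and 2.63 in wild-type mice without and with DT, and 2.73 and 3.05 in *Prestin*-*hDTR* mice without and with DT. DT-treated *Prestin*-*hDTR* mice stood alone, 0.31 (1.24-fold) above the nearest of the other 3 arrays, which differed by at most 1.08-fold. The ratio to untreated *Prestin*-*hDTR* mice was 1.25-fold, and 11.2% of all genes had a ratio at least as high. *Nqo1* encodes a quinone reductase that keeps quinones out of redox cycling, and its probe lies at chr8:109912440-109912499 (mm9). Its level was -1.03, -1.08, -1.08 and -0.76 in the same order, so that DT-treated *Prestin*-*hDTR* mice were again highest, by 0.27 (1.21-fold), while the other 3 arrays differed by at most 1.03-fold. The ratio to untreated *Prestin*-*hDTR* mice was 1.24-fold, and 11.4% of all genes had a ratio at least as high. *Nqo1* and *Srxn1* were the 2 of 9 genes whose level in DT-treated *Prestin*-*hDTR* mice lay above all 3 other arrays, a position held by 35.1% of all genes.

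The thioredoxin reductase *Txnrd1*, which feeds electrons to thioredoxin, had levels of 2.03 and 2.15 in wild-type mice without and with DT, and 2.10 and 2.07 in *Prestin*-*hDTR* mice without and with DT. Its probe lies at chr10:82360230-82360289 (mm9). All pairs of arrays were within 2 SD of the spot error. *Gpx2*, a glutathione peroxidase best known from the lining of the gut and measured by a probe at chr12:77893402-77893461 (mm9), had levels of 5.08, 4.89, 4.99 and 5.02 in the same order. Its lowest array was that of DT-treated wild-type mice, which was lower than that of untreated wild-type mice by 1.14-fold, and its toxin ratio in *Prestin*-*hDTR* mice was 0.03. Under quantile scaling the wild-type ratio of *Gpx2* was -0.07.

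Antioxidant response elements of the forms TGACNNNGC and TGAGNNNGC were searched on both strands of the same windows. The *Srxn1* window is shown because *Srxn1* had the highest ratio of the 9 genes in DT-treated against untreated *Prestin*-*hDTR* mice. It holds TGAGNNNGC at 2 places, beginning 158 and 45 bases before the start (capitals), the first of them on the opposite strand.
*Srxn1*, chr2:152105274-152105523, plus strand: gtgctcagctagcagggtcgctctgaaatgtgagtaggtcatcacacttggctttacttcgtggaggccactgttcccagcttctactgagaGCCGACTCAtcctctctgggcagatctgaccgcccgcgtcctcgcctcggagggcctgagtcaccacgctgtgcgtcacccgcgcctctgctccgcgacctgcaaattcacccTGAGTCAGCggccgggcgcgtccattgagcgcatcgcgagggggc
TGACNNNGC was found in the windows of *Gclm*, beginning 134 bases before the start, and of *Txnrd1*, beginning 92 bases before 1 of its 3 starts. The windows of *Nqo1* and *Gpx2* held neither form. Of all 27025 genes in the table, 3112 held TGACNNNGC and 4407 (16.3%) held TGAGNNNGC (10.2% and 14.4% of windows). Of the 8 genes with a window, 2 held the first form and 1 the second.

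Across the 9 genes, DT-treated wild-type mice had the highest array for 6 (*Hmox1* by its distal probe, *Hspa1a*, *Hspb1*, *Gclm*, *Gclc* and *Txnrd1*), where 15.6% of all genes had their highest level. The gap to the next array passed 2 SD of the spot error for *Hspa1a* (0.66) and the distal *Hmox1* probe (0.33). It was within that error for *Gclm* (0.12), *Gclc* (0.11), *Hspb1* (0.07) and *Txnrd1* (0.05). Untreated wild-type mice had the lowest array for 5 of the 9, where 21.6% of all genes had their lowest level. Of these 5, only *Gclc* lay below the next array by more than 2 SD of the spot error (0.23). The median log2 ratio of the 9 genes was 0.20 in DT-treated against untreated wild-type mice, with 6 higher and 3 lower. That of all genes was -0.04, and 39.65% of all genes were higher. In DT-treated against untreated *Prestin*-*hDTR* mice the median of the 9 genes was 0.06, with 7 higher and 2 lower. That of all genes was 0.00, and 49.42% of all genes were higher. Of the 9 genes, only *Srxn1* (0.32), *Nqo1* (0.32) and *Hspb1* (0.24) passed 2 SD of the spot error there. Ratios at least as large in either direction were held by 22.5%, 22.8% and 31.4% of all genes, in that order. In untreated *Prestin*-*hDTR* against untreated wild-type mice the median of the 9 genes was 0.01, and that of all genes was -0.02. In DT-treated *Prestin*-*hDTR* mice 6 of the 9 genes lay within the range of the other 3 arrays, which 31.4% of all genes did, and 1 (*Gclm*) lay below it, as did 33.5% of all genes.

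Markers of blood cells and of bone differed between the same arrays. Of 13 erythroid markers, 8 were higher by 2-fold or more in DT-treated than in untreated wild-type mice, and the 8 detected on every array had a mean level of -1.06 and 0.50 in wild-type mice without and with DT, and -0.97 and -0.29 in *Prestin*-*hDTR* mice without and with DT. The mean level of 12 neutrophil markers was -0.43, 0.36, -1.70 and -0.98 in the same order, and all 14 neutrophil markers were higher in DT-treated than in untreated wild-type mice, 3 of them by 2-fold. Both lists were highest in DT-treated wild-type mice, as were *Hspa1a*, *Hspb1*, *Gclm*, *Gclc*, *Txnrd1* and the distal probe of *Hmox1*. For *Hspb1*, *Gclm*, *Gclc* and *Txnrd1* this lead was within 2 SD of the spot error. By mean level, the erythroid list was lowest in untreated wild-type mice and the neutrophil list in untreated *Prestin*-*hDTR* mice. Of the erythroid markers detected on every array, *Slc4a1* and *Ahsp* were lowest in untreated *Prestin*-*hDTR* mice and *Ermap* in DT-treated wild-type mice. The others were lowest in untreated wild-type mice. So were *Hspa1a*, *Hspb1*, *Gclc*, *Txnrd1* and the distal probe of *Hmox1*, but not *Gclm*. Of 19 macrophage markers, 8 were higher by 2-fold or more in DT-treated than in untreated *Prestin*-*hDTR* mice, and their mean level was -0.44, -0.40, -0.64 and 0.17. It was highest in DT-treated *Prestin*-*hDTR* mice, as were *Nqo1* and *Srxn1*. The list of 12 supporting cell markers was also highest there, with mean levels of 0.718, 0.795, 0.816 and 0.863 in the same order. The 5 skeletal muscle markers detected on every array had mean levels between -2.48 and -2.18, and the 9 bone markers had mean levels of 0.31, 0.56, 0.08 and -0.12 in the order above. The bone list was thus also highest in DT-treated wild-type mice, with 8 of 9 markers higher than in untreated wild-type mice. The part of these cells in the results was not tested.

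**Figure D3:**
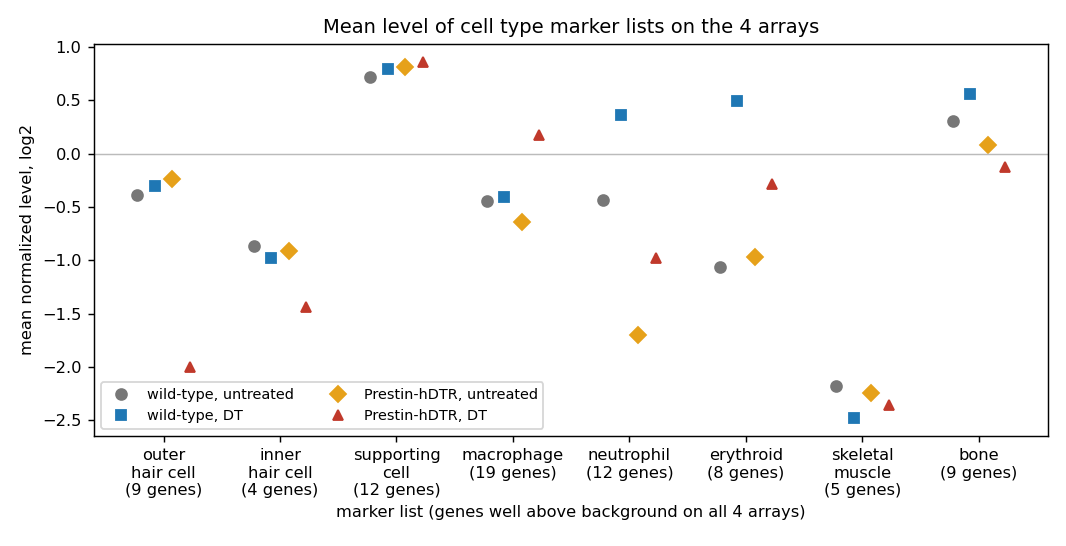
Mean log2 level (y axis) of 8 cell type marker lists (x axis) on the 4 arrays, with 1 point per array, over the genes of each list that were well above background on all arrays. The OHC list is lowest in DT-treated *Prestin*-*hDTR* mice (-2.00), and the macrophage (0.17) and supporting cell (0.86) lists are highest there. The neutrophil and erythroid lists are highest in DT-treated wild-type mice (0.36 and 0.50).

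The other genes of these pathways were taken from lists. Of 31 measured heat shock factors and chaperones, 0 passed 2-fold in DT-treated against untreated *Prestin*-*hDTR* mice, 12 were higher and 19 lower, and the median was -0.04. The lowest of those well above background on all arrays were *Hspb3*, a small heat shock protein (-0.67), *Dnajb1*, the HSP40 partner of HSP70 (-0.54), and *Dnajb6* (-0.19), and the highest were the small heat shock proteins *Hspb2* (0.54), *Hspb6* (0.44) and *Cryab* (0.31). The level of *Dnajb1* was 4.03 and 4.02 in wild-type mice without and with DT, and 4.02 and 3.48 in *Prestin*-*hDTR* mice without and with DT. That of *Cryab*, which encodes αB-crystallin, was 5.30 on the 3 other arrays and 5.61 in *Prestin*-*hDTR* mice with DT. In both genes the 3 other arrays were nearly equal and DT-treated *Prestin*-*hDTR* mice stood apart, below them for *Dnajb1* (1.45-fold) and above them for *Cryab* (1.24-fold). *Hsf1* itself had levels of 0.53, 0.66, 0.54 and 0.54, and *Hsf2* of -0.89, -0.98, -0.94 and -1.08.

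Of 42 other NRF2 pathway genes, 0 passed 2-fold in DT-treated against untreated *Prestin*-*hDTR* mice, 29 were higher and 13 lower, and the median was 0.06. The highest were *Osgin1*, an oxidative stress-induced growth inhibitor (0.55), *Mgst1*, the microsomal glutathione transferase (0.50), and *Maff*, a small MAF partner of NRF2 (0.45). The lowest were *Gsta3*, a glutathione transferase (-0.35), *Gss*, glutathione synthetase (-0.34), and *Blvra*, biliverdin reductase (-0.24). *Mgst1* had a level of 2.30 and 2.31 in wild-type mice without and with DT, and 2.38 and 2.87 in *Prestin*-*hDTR* mice without and with DT, with DT-treated *Prestin*-*hDTR* mice alone at the top, as for *Srxn1* and *Nqo1*. The toxin ratio in *Prestin*-*hDTR* mice was 0.05 for *Nfe2l2*, -0.11 for *Keap1* and 0.08 for *Bach1*, the repressor of *Hmox1*, and -0.03 for *Hmox2*, the constitutive haem oxygenase, and these 4 were within the spot error.

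Of 36 other antioxidant enzymes and metallothioneins, 0 passed 2-fold, 18 were higher and 18 lower. *Gpx3*, the secreted glutathione peroxidase, was the highest at 0.67, with levels of 2.62 and 2.81 in wild-type mice without and with DT, and 2.54 and 3.20 in *Prestin*-*hDTR* mice without and with DT. Of 20 ER stress genes, 1 passed 2-fold. This was *Atf3*, a stress-induced transcription factor, with levels of -1.67, -1.22, -1.61 and 0.21 in the same order. It was 3.52-fold higher in DT-treated than in untreated *Prestin*-*hDTR* mice and 2.68-fold above the nearest of the other 3 arrays. Of 11 genes of NADPH oxidases, their subunits and myeloperoxidase, which make oxidants, 4 passed 2-fold, *Ncf4* (2.71-fold higher), *Cybb* (2.57-fold), *Mpo* (2.28-fold) and *Rac2* (2.14-fold). All 4 were lowest in untreated *Prestin*-*hDTR* mice, where *Mpo* was 4.41-fold and *Cybb* 3.72-fold lower than in untreated wild-type mice. In DT-treated *Prestin*-*hDTR* mice *Mpo* was also below both wild-type groups, 2.83-fold with DT and 1.94-fold without. Against all 3 other arrays none of these 4 passed 2-fold, and of these 5 lists only *Atf3* did.

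**Figure D4:**
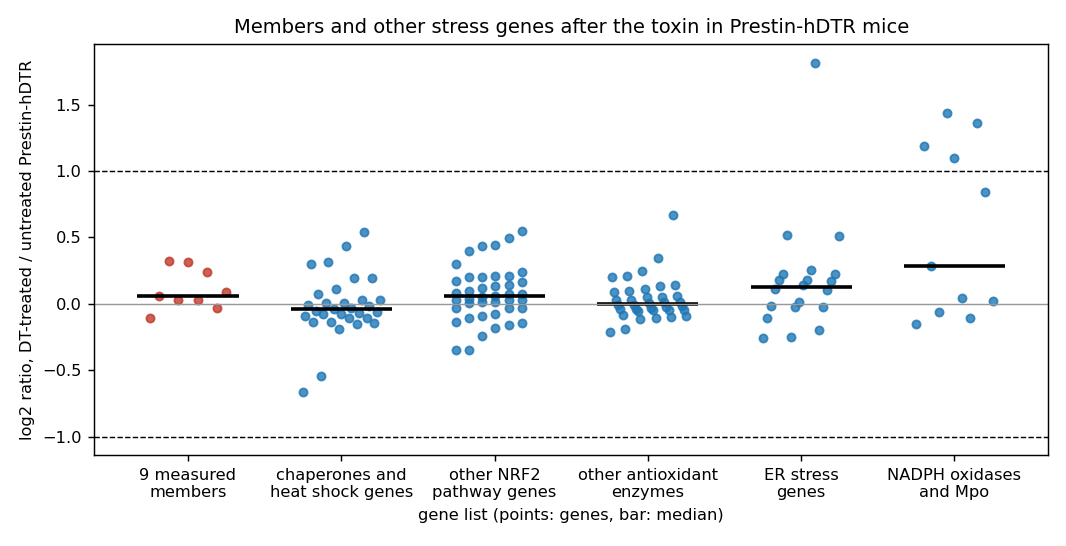
Log2 ratio of DT-treated to untreated *Prestin*-*hDTR* mice (y axis) for the 9 measured genes (red) and the 5 other lists (blue), with 1 point per gene, the median as a black bar and the 2-fold limits as dashed lines. The 9 genes lie between -0.11 and 0.32, and points beyond 2-fold occur only for *Atf3* and 4 genes of the NADPH oxidase list.

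The same lists in DT-treated against untreated wild-type mice had no gene past 2-fold among the heat shock (median 0.00), NRF2 (0.01), antioxidant (-0.07) and ER stress (0.13) genes, and 1, *Cybb*, lower by 2-fold among the NADPH oxidase genes. The 1.68-fold difference of the *Hspa1a* probe in wild-type mice thus stood beside a median of 0.00 over the 31 other heat shock genes. Of these, 16 were higher and 15 lower. Among those well above background on all arrays, the highest were *Chordc1* (0.37), *Hspa4l* (0.27) and *Hsph1* (0.25). The lowest were *Hspb3* (-0.45), *Hspa8* (-0.23) and *Hspb2* (-0.23). They were picked for these values, which were not tested.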

How the data were processed

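The authors deposited the scanner output of 1 Agilent 1-channel (Cy3) mouse array for each of 4 groups, all on 1 slide. Per the labels, the software was Agilent Feature Extraction 11.5.1.1 (submitters' processing notes). The deposited intensity is linear, with the background already subtracted and no scaling between arrays. A scaled table, also deposited by the authors, holds the same signal divided by 1 constant per array (2923.9 and 3364.7 for wild-type mice without and with DT, and 3230.1 and 3304.5 for *Prestin*-*hDTR* mice without and with DT). It is linear and not centred, with column medians of 0.0865, 0.0853, 0.0828 and 0.0850, and was used for 1 alternative.

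Of 44397 features, 1377 were controls. Controls and outlier spots (149 to 228 per array) were left out, and no spot was saturated. Spots of a probe were averaged, divided by the 75th percentile of the array (2740 to 3177 intensity units) and brought to the log2 scale. Between 62.3% and 70.6% of probes per array were well above background. A dimmer probe was raised to the lowest level well above background. The brightest probe stood for a gene, and genes past 2-fold were counted. Differences have no replicate check, since each group is 1 pool. Precision is limited by having 4 arrays.

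The genes, the 13 lists (238 genes) and the alternatives were chosen with earlier results of these data known. From each list, the 3 highest and 3 lowest ratios in DT-treated against untreated *Prestin*-*hDTR* mice among genes well above background on all arrays, genes past 2-fold and the regulators were eligible to be named. For DT-treated against untreated wild-type mice, the 3 highest and 3 lowest heat shock genes were named after their values were seen. Probe positions are those of the array files (mm9), and exon or UTR annotation of that build was not used here. Names came from the RefSeq table by symbol for 29803 probes, accession for 1635 and synonym for 295, and were kept for 7696. Upstream windows came from RefSeq (GRCm38.p6), without the bases after the start, and 8 of the 10 genes matched. The 9 alternatives change the background correction (normexp, offset 50), scaling, source, floor, filter, probe choice, outlier spots or threshold. The steps were tested on simulated data with planted changes larger than 2-fold, so that test does not cover smaller differences. R 4.3.3 ran limma 3.58.1, and Python 3.11.15 ran numpy 2.4.6, pandas 2.3.3 and matplotlib 3.10.9.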

Additional observations from a re-analysis of the deposited data

Results flagged for a closer look

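For 5 of the 10 probes the toxin ratio had opposite signs in the 2 genotypes, with 1 array behind each group. The log2 ratio in *Prestin*-*hDTR* mice minus that in wild-type mice was 0.43 for *Srxn1*, 0.36 for *Nqo1* and 0.22 for *Gpx2*, and -0.31 for *Gclm* and -0.15 for *Txnrd1*. For 0 of the 5 did both ratios pass 2 SD of the error between spots, and the difference was not tested. The difference of the *Hspa1a* probe was larger, -0.66, without a change of sign.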

How the results depend on the processing

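The count of genes past 2-fold was 0 of 9 in all 6 comparisons under the 8 alternatives that keep this threshold. At 1.5-fold it was 1 in DT-treated against untreated wild-type mice and 1 in DT-treated *Prestin*-*hDTR* against DT-treated wild-type mice, the *Hspa1a* probe in both, and 0 in the other 4. Of 504 single values recomputed (63 under each of 8 alternatives), 494 moved by less than 1 SD of the error between spots and 10 by more, where the SD is that of a ratio (0.0855 on the log2 scale) and larger for a difference of ratios. Those 10 belong to *Hmox1* when its probes were averaged and to *Hspb1* and *Gpx2* under quantile scaling. The largest shift was 0.23 (log2). A change of sign occurred for 6 values, whose size before the change was at most 0.053. The ratio of *Hmox1* in untreated *Prestin*-*hDTR* against untreated wild-type mice went from 0.03 to -0.10 when its probes were averaged. No scaling moved the median of all genes by more than 0.03. No paired analysis was possible because each group has 1 array, and for the same reason no array could be left out of a group. All 10 probes were well above background, each group has 1 array, and the 2 *Hmox1* probes disagreed.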

Other observations

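These 4 genes of the pentose phosphate pathway, which supplies the NADPH used by *Nqo1*, *Txnrd1* and glutathione reductase, were named after their values were seen. *G6pdx*, its first enzyme, had levels of 2.36 and 2.46 in wild-type mice without and with DT, and 2.44 and 2.83 in *Prestin*-*hDTR* mice without and with DT. The log2 ratio of DT-treated to untreated *Prestin*-*hDTR* mice was 0.39 for *G6pdx*, 0.24 for *Pgd*, 0.21 for *Tkt* and 0.20 for *Taldo1*. They were picked from the NRF2 list for these values, so their common direction is a description. No test was possible with 1 array per group.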
